A study of Mus musculus with 158 samples.

Results

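The cytosolic ribosomal protein genes of the mouse are described here in RNA from single astrocytes and neurons. The members are the rows of the count table whose symbol is Rpl or Rps followed by digits and at most one of the letters a, x and l, together with Rplp0, Rplp1, Rplp2 and Rpsa. The rule uses names only and no measured value. It found 80 of the 21956 gene rows, of which 49 encode proteins of the large ribosomal subunit and 31 proteins of the small subunit. The table held 158 libraries, counted here as 149 cells, since 9 cell names occurred on 2 libraries each, which were summed. Among the hippocampal cultures the title numbers M1 and M9 occur with the letter S and again with D. The labels do not say whether such a pair comes from 1 cell, and each of the 8 hippocampal titles was counted as a cell.

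Each cell was drawn into a patch pipette and its RNA was amplified by 3 rounds of antisense RNA transcription. No cell was treated. The 6 groups were 86 cortical astrocytes from primary culture (7, 12, 14 or 15 days), 5 CA3 neurons and 15 CA1 neurons from acute hippocampal slices, 8 hippocampal neurons from primary culture (15 days), 22 cortical neurons from acute slices, and 13 cortical neurons from primary culture (6, 10, 13 or 15 days). The strain was given as C57/BL6/N, except for the hippocampal cultures and the astrocytes of 7 days, which were given as C57/BL6. Sex, and the age of the slice donors, are not stated. The labels named no animal or culture dish, so each group counts as 1 sample with its cells as parts of it: values are given for each cell or as the spread over cells, and no p-values were computed.

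Ribosomal proteins build the 2 subunits of the cytosolic ribosome. Their genes are scattered over the genome and are read at high and roughly balanced rates, because the proteins are needed in equal numbers. Most of their mRNAs begin with a C followed by a run of pyrimidines (the oligopyrimidine tract), through which growth signals acting on mTOR and the protein Larp1 control translation. Nearly every one of these genes has also left processed pseudogenes, intronless copies of its mRNA, elsewhere in the genome, and reads from the gene and from a near-perfect copy can be hard to tell apart.

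Sequences at the starts of the genes were searched for the tract. RefSeq promoter sequences of GRCm38.p6 were matched by symbol for 60 of the 80 members, with 72 annotated starts. A C followed by at least 4 more bases that are C or T, beginning within 5 bases of the start on the strand of the gene, was found at 30 of the 72 member starts (41.7%) and 28 of the 60 genes, against 18.3% of all 32851 starts, so most member starts had no match. Of 4 other motifs searched on both strands of the same windows, CCGGAAG was at 36.1% of member starts and at 8.86% of all starts, AAGATGG at 15.3% and 6.34%, GGGCGG at 58.3% and 35.7%, and TATAAA at 8.33% and 13.6%. Overlap between motifs was allowed, and a match of letters is not a measured binding site. The stretches shown next belong to members on which results given further on turn. Each runs from 40 bases before the annotated start to 20 bases from it on, 5′ to 3′ on the gene's own strand, and capitals mark the tract, where there is one.

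Rps6 (chr4:86857348-86857407, minus strand): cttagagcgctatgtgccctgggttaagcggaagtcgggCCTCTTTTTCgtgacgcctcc
Rplp2 (chr7:141447611-141447670, plus strand): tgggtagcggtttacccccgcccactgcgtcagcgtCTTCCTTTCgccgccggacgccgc
Rpl15 (chr14:18270967-18271026, minus strand): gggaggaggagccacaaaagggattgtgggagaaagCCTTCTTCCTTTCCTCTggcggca
Rpl38 (chr11:114668540-114668599, plus strand): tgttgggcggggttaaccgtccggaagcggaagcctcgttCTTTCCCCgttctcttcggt
Rps27 (chr3:90213629-90213688, minus strand): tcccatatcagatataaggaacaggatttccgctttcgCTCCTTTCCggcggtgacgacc
Rps27l, first start (chr9:66946046-66946105, plus strand): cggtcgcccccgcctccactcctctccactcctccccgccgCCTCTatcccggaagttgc
Rps27l, second start (chr9:66946373-66946432, plus strand): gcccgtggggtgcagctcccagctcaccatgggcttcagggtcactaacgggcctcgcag
Rpl26 (chr11:68901526-68901585, plus strand): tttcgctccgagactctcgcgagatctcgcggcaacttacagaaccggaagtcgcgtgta

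Rps27 and Rps27l are paralogs that encode closely similar small-subunit proteins, and a further gene, Rps27rt, has a coding sequence identical to that of Rps27 from its first to its last base. The count table had rows for Rps27 and Rps27l and none for Rps27rt. The first 90 coding bases are shown because they bear on which of these rows could receive reads. They were taken from the GENCODE vM21 transcripts of GRCm38, and capitals mark the bases of Rps27l that differ from Rps27, which are 24 of 90 here. Over the whole coding sequence, which has the same length in both, 194 bases are the same.

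Rps27: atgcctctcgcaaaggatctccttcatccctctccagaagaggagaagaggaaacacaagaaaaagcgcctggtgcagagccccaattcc
Rps27rt: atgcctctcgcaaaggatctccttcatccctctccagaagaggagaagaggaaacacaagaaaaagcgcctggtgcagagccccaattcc
Rps27l: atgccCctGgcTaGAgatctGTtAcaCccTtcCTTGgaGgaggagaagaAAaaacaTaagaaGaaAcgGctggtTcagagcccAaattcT

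The depth and the identity of the cells bear on every value that follows. Cells had between 535369 and 38680739 counts, with group medians from 4125370 in CA1 neurons to 15369200 in astrocytes. The 2 libraries of a cell correlated at 0.945 or more over genes, against at most 0.621 with any other library. Markers of neurons were present in the neuron groups, with summed medians of 3338 to 10773 CPM (counts per 1000000 counts), and 83 of the 86 astrocytes had more astrocyte than neuron markers, as had 2 cortical slice neurons and 3 cultured cortical neurons. Markers of microglia, the resident macrophages of the brain, were also present: at least 2 of 10 were detected in 0 of 5 CA3 neurons, 8 of 14 CA1 neurons and 10 of 22 cortical slice neurons, against 16 of 86 astrocytes, 2 of 8 cultured hippocampal neurons and 3 of 13 cultured cortical neurons. Detection of a gene means at least 5 counts after each cell was thinned to 1000000 counts, which left out 1 CA1 neuron.

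Ribosomal protein mRNAs took up a few percent of a typical cell's counts and varied more between cells of a group than between the medians of the groups. The share of a cell's counts on the 80 genes had a lowest, median and highest value of 0.412%, 4.595% and 11.4% in astrocytes. It was 0.245%, 1.18%, 1.41%, 3.00% and 8.39% in the 5 CA3 neurons. It was 0.632%, 5.08% and 21.4% in CA1 neurons, and 1.26%, 1.45% and 4.73% in cultured hippocampal neurons. Neurons of cortical slices had a lowest, median and highest share of 0.0813%, 3.22% and 20.1%, against 2.27%, 3.83% and 11.6% in cultured cortical neurons. The ranges of all 6 groups overlapped. The highest cell exceeded the lowest by 34.3 times in CA3, by 33.9 times in CA1 and by 247 times in cortical slice neurons, against 27.8 times in astrocytes, 3.76 times in cultured hippocampal and 5.12 times in cultured cortical neurons. Single lowest cells set much of this: with the lowest cell of each group left out, the ratio was 7.12 in CA3, 23.1 in CA1, 21.2 in cortical slice neurons, 9.99 in astrocytes, 3.61 in cultured hippocampal and 5.01 in cultured cortical neurons. In cortical slices the lowest cell had 0.0813% and the next 0.947%. A share is relative to all counts of a cell, so more mRNA of these genes and less of everything else cannot be told apart.

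**Figure D1:**
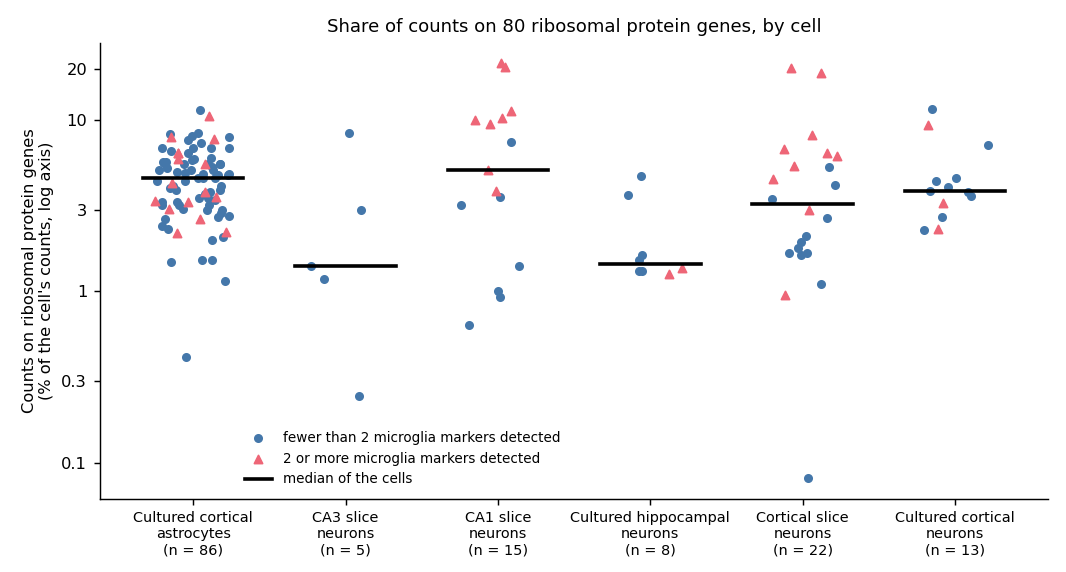
Percent of each cell's counts on the 80 ribosomal protein genes (log axis), with 1 point per cell in each of the 6 groups, a bar at the group median, triangles for cells with at least 2 microglia markers detected and circles for the others. The highest slice cells, at 21.4% in CA1 and 20.1% in cortical slices, are cells with microglia markers.

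In culture, the share was given by age. Cultured cortical neurons of 6 days had shares of 4.39%, 7.15% and 11.6%, those of 10 days 3.79%, 4.05% and 4.58%, the 4 of 13 days between 2.27% and 3.83%, and those of 15 days 2.31%, 3.26% and 9.41%. The 3 youngest neurons were all above the 4 of 13 days, while the neurons of 15 days spread over the ranges of the other ages. The software version that made the reads ran with age: the cells of 6 and 15 days were processed with an older version of bcl2fastq and those of 10 and 13 days with a newer one, so age and version cannot be fully told apart. Astrocytes, all of the newer version, had medians of 6.82% at 7 days (3 cells, 3.91% to 8.01%), 4.69% at 12 days (70 cells), 4.02% at 14 days (5 cells) and 3.81% at 15 days (8 cells), and the ranges of all 4 ages overlapped. The astrocytes of 7 days had another strain label than the older ones, so age and strain cannot be told apart there.

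How many of the 80 genes a cell showed differed with the source of the cell. The median cell had 73 of 80 members detected among astrocytes and 73 among cultured hippocampal neurons, and 72 among cultured cortical neurons. Slice neurons had fewer, with medians of 51 in CA3, 66 in CA1 and 54.5 in cortical slices. Those cells also showed fewer genes of any kind: the median number of genes detected was 4938 in astrocytes, 2162 in CA3, 1896 in CA1, 7492 in hippocampal cultures, 1806 in cortical slices and 4462 in cortical cultures. In slice cells a few members carried much of the sum. The 5 highest members of a cell held a median of 43.5% of its ribosomal protein counts in CA3, 40.04% in CA1 and 39.8% in cortical slice neurons, against 24.7% in astrocytes, 16.9% in cultured hippocampal and 25.6% in cultured cortical neurons. The extreme was 1 cortical slice neuron with 313 genes detected, in which 5 members were detected, the 5 highest held 99.9% of the ribosomal protein counts, and Rpl23a alone held 63.3%.

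The member with most counts differed from cell to cell. Rps4x, the X-linked gene of small-subunit protein S4, was the highest member in 33 of 86 astrocytes, and Rpl4 in 4 of 8 cultured hippocampal neurons. Rpl7 was the highest in 4 of 13 cultured cortical neurons. The 5 CA3 neurons had 5 different highest members, namely Rpl37, Rpl23, Rpl13a, Rps12 and Rplp1. The large subunit held a median of 55.5% of the ribosomal protein counts in astrocytes, 70.6% in CA3, 59.2% in CA1, 59.2% in cultured hippocampal, 61.7% in cortical slice and 59.3% in cultured cortical neurons.

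Levels of different members are given here per length. That scale assumes that counts grow with the length of the transcript, which was not tested for this amplified RNA. On the scale of CPM per kilobase of transcript, averaged over the 6 groups, the highest were Rplp1 with 4502, Rps12 with 3070 and Rpl17 with 2335. Rplp1 encodes one of the acidic stalk proteins that recruit translation factors to the ribosome, Rps12 a small-subunit protein and Rpl17 a protein near the mouth of the exit tunnel. Among members with at least 1 CPM in every group, the lowest were Rps20 with 127, Rpl10a with 96.1 and Rps15a with 78.3. The annotated transcripts used for Rps20 and Rps15a are 3706 and 5179 bases long although their coding sequences have 360 and 393 bases. Per kilobase of coding sequence, a scale chosen after these values were seen, Rps20 stood at rank 30 and Rps15a at rank 37 of the 80, against ranks 70 and 72 per kilobase of transcript. Rpl10a stood at rank 71 per kilobase of transcript and at rank 73 per kilobase of coding sequence.

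Of the stalk genes, Rplp1 had the highest level of the 80 per kilobase, as given above, while Rplp0 with 472 and Rplp2 with 696 CPM per kilobase were near the middle of the family. Rplp1 had a lowest, median and highest level of 6.36, 976 and 3831 CPM in astrocytes. In the 5 CA3 neurons it had 31.8, 125, 153, 1201 and 9196 CPM. In CA1 neurons the 3 values were 1.82, 1609 and 11161 CPM, and in cultured hippocampal neurons 261, 425 and 2260 CPM. Cortical slice neurons had 0, 490 and 23104 CPM, against 277, 780 and 4120 CPM in cultured cortical neurons. A single CA3 cell thus held most of that group's Rplp1, and Rplp1 was detected in 95.3% of all cells, the same share as Rpl37, Rps29 and Rpl13a. Rplp2, the partner of Rplp1 in the stalk, had summed levels of 381 CPM in astrocytes, 591 in CA3, 1496 in CA1, 240 in hippocampal cultures, 773 in cortical slices and 547 in cortical cultures.

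Rplp0, which anchors the stalk to the large subunit, did not follow its partners in CA3. It had 227.7 CPM in 1 CA3 neuron and at most 0.595 CPM in the other 4. The lowest, median and highest were 1.54, 496 and 2947 CPM in astrocytes, 0, 236.6 and 5866 in CA1, 268, 442 and 1956 in hippocampal cultures, 0, 193 and 9911 in cortical slices and 12.9, 837 and 3551 in cortical cultures. Summed, Rplp0 had 24.7 CPM in CA3 against 648 in astrocytes, 930 in CA1, 491 in hippocampal cultures, 854 in cortical slices and 899 in cortical cultures.

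The small-subunit genes Rpsa, Rps6 and Rps27a, with roles beyond the ribosome body, were lower in CA3 than elsewhere by their median cell. Rpsa, whose protein is also known as the laminin receptor, had median cell levels of 335 CPM in astrocytes, 1.19 in CA3, 147 in CA1, 273 in hippocampal cultures, 47.9 in cortical slices and 1280 in cortical cultures. Rps6, whose protein is phosphorylated by S6 kinase downstream of mTOR, was a weak member, with medians of 147, 0, 17.8, 65.1, 3.21 and 120.95 CPM in the same order of groups. Rps27a, which encodes ubiquitin fused to a small-subunit protein, had medians of 572, 12.8, 155, 311, 117.4 and 288.9 CPM in that order. In CA3 the median of Rps6 was at 0, and the ranges of cells overlapped between groups for all 3 genes.

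Rps27l was found in nearly every astrocyte and in few slice neurons. It was detected in 84 of 86 astrocytes (97.7%, exact 95% interval 91.8% to 99.7%), 1 of 5 CA3 neurons, 3 of 14 CA1 neurons (21.4%, 4.66% to 50.8%), 7 of 8 cultured hippocampal neurons, 5 of 22 cortical slice neurons (22.7%, 7.82% to 45.4%) and 6 of 13 cultured cortical neurons (46.2%, 19.2% to 74.9%). Its median level was 570 CPM in astrocytes, 0 in CA3, 0 in CA1, 47.96 in hippocampal cultures, 0 in cortical slices and 0.691 in cortical cultures. Its highest cells reached 2729 CPM in astrocytes, 743 in CA3, 69.5 in CA1, 115.96 in hippocampal cultures, 1422 in cortical slices and 407 in cortical cultures. Summed, the level was 687 CPM in astrocytes (exact Poisson 95% interval 686 to 689) and 8.72 CPM in CA1 (8.08 to 9.40). These intervals cover counting error only: the Poisson ones are far narrower than the spread between cells, and the binomial ones treat the cells of a group as independent, which the labels do not show. In humans RPS27L is known as a gene induced by p53.

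The paralogs stood far apart in level. Rpl3l, the muscle paralog of Rpl3, was at 0 to 4.47 CPM in the group sums, against 96.4 to 1366 CPM for Rpl3. Rpl10l, the testis paralog of Rpl10, stayed at 0.167 CPM or less, against 77.3 to 547 CPM for Rpl10. Rpl39l, the paralog of Rpl39 known from testis, stayed at 0.259 CPM or less, against 166 to 1765 CPM for Rpl39. Rpl10l and Rpl26 were detected in 0.676% of all cells and Rpl39l in 2.03%, the lowest of the 80.

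Rpl26, Rps27, Rpl30 and Rpl34 also lay far below the median member in every group. Rpl26, a large-subunit protein gene, was at 0.553 CPM in astrocytes, 0 in CA3, 0 in CA1, 0.125 in hippocampal cultures, 0.00657 in cortical slices and 0.191 in cortical cultures. A count of 0 over the 15 CA1 neurons allows up to 0.0385 CPM, and over the 5 CA3 neurons up to 0.109 CPM. Rps27 did not exceed 2.09 CPM in any group, Rpl30 did not exceed 6.51 CPM and Rpl34 did not exceed 28.4 CPM. The median member, by comparison, was at 500 CPM in astrocytes, 180 in CA3, 875 in CA1, 202 in hippocampal cultures, 440 in cortical slices and 476 in cortical cultures.

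**Figure D2:**
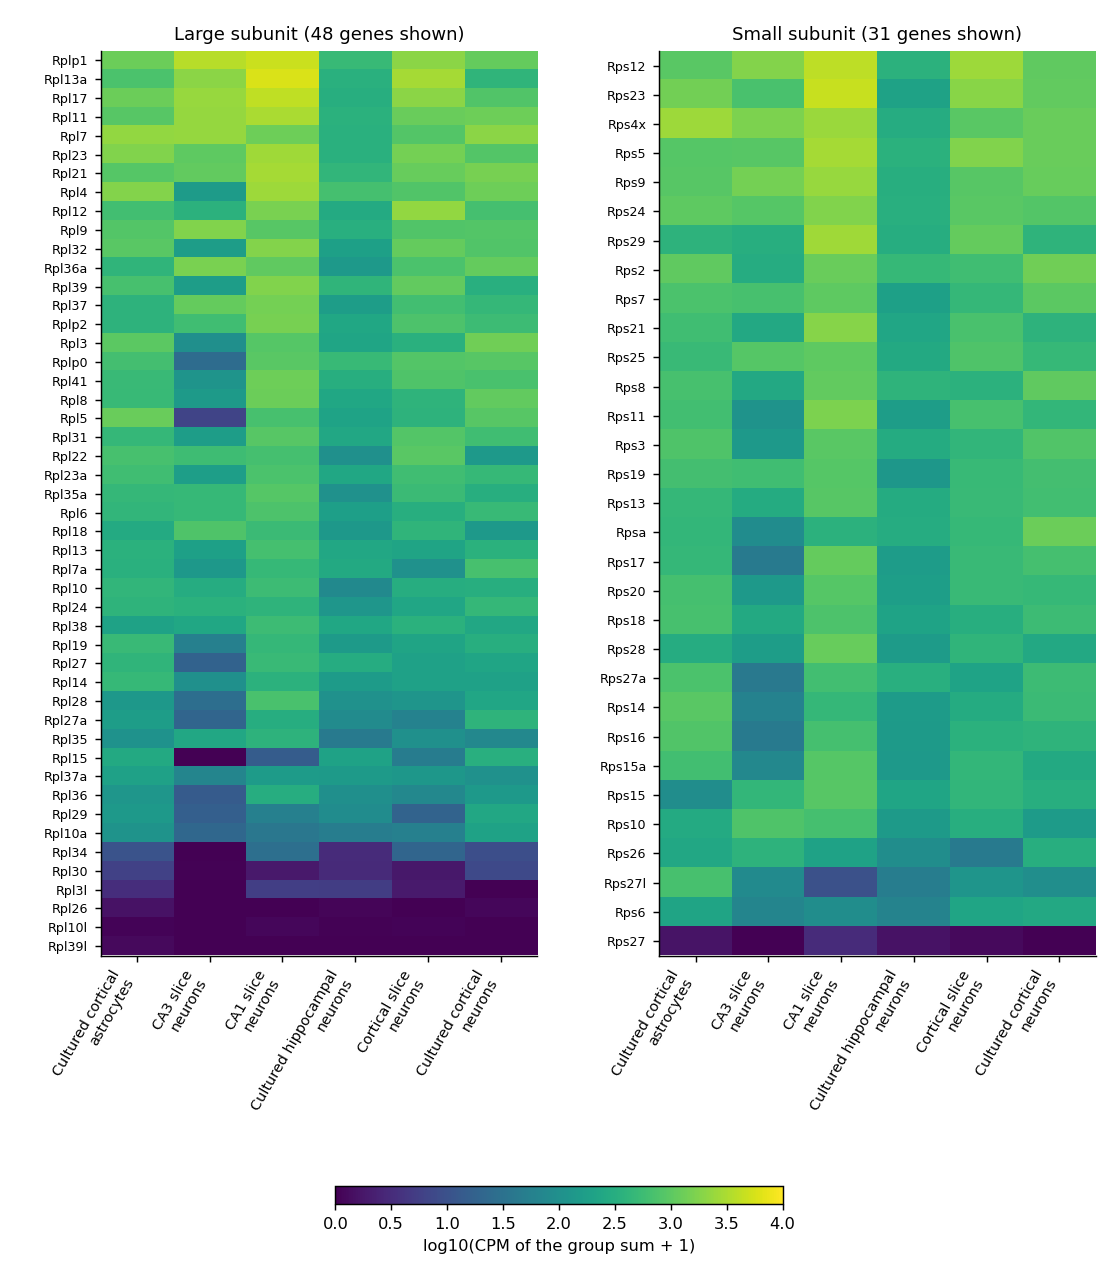
Summed level of 79 of the 80 members in each of the 6 groups, as log10 of CPM plus 1 (colour scale from 0 to 4), with genes ordered by their mean level and the large and small subunit in panels of their own. The dark rows at the bottom are Rpl26, Rps27, Rpl30 and Rpl34 and the paralogs Rpl3l, Rpl10l and Rpl39l.

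Copies of these genes were looked for in the transcripts of GENCODE vM21. Of the 80 members, 77 have at least 1 pseudogene that shares a stretch of 50 bases, with a median of 8 such pseudogenes and a highest number of 120, for Rpl7a. For Rps27, 98.4% of its stretches of 100 bases occur exactly in another gene, Rps27rt, and 1 pseudogene shares such stretches. Rpl26 shares 36.8% of such stretches with other transcripts and an exact run of 176 bases with the processed pseudogene Gm15772. The run begins at the first coding base, and its first 90 bases are shown for both, since a read from either locus would be the same.

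Rpl26: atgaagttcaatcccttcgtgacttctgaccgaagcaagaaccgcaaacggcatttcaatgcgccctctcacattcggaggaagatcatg
Gm15772: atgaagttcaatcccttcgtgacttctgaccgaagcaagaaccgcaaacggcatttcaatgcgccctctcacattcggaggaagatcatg

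Rpl26 lies at chr11:68901583-68906989 and Gm15772 at chr5:3236431-3236868, both on the plus strand, and Gm15772 has no row in the count table. Rpl30 shares an exact run of 252 bases with the pseudogene Gm12191, and Rpl34 one of 185 bases with Rpl34-ps1, and both of these pseudogenes have rows of their own. Members that share much of their sequence were found at low and at high levels. Rps27 shares the most of the 80, 98.4% of its stretches of 100 bases, and had a mean of 0.609 CPM over the groups. Rpl10 shares 91.6% of its stretches of 100 bases with other loci, Rps6 83.6%, Rpl3 79.4%, Rpl13 78.9% and Rps13 77.6%. In astrocytes Rpl10 had 432 CPM, Rps6 218, Rpl3 970, Rpl13 352.8 and Rps13 465.9. The 27 members that share at least 50% of these stretches had a median of 522 CPM per kilobase, and the other 53 had 596. Spearman's correlation between the shared percentage and the level per kilobase was 0.06 over the 80 members. The labels do not say how reads with several matches were counted, and the part of that in the 4 low members was not tested.

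Among the rows kept out of the 80, 5 carry the symbol of a member followed by ps and a number, which marks a pseudogene. Pseudogenes under other symbols, such as Gm12191 of Rpl30 and Gm10653 of Rps2, also have rows and do not enter the sum given next. The summed level of the 5 rows per cell had a median of 6.98 CPM in astrocytes, 2.37 in CA3, 7.33 in CA1, 3.31 in hippocampal cultures, 10.98 in cortical slices and 9.28 in cortical cultures. In 1 cortical slice neuron, Rps19-ps3 reached 2495 CPM beside 15.4 CPM for Rps19 itself. In the same cell Rps15a-ps6 had 723 CPM and Rps15a 3655 CPM. Several members also overlap another gene, which matters if counting ignored strand: Rpl35 overlaps Arpc5l and Wdr38 on the opposite strand over 68.3% of its exon bases, Rpl23a overlaps Tlcd1 over 55.4%, Rps25 overlaps Ccdc84 and Trappc4 over 52.2%, and Rpl5 overlaps Fam69a over 46.6%. Rpl24 and Rpl13a overlap Gm28037 (71.5%) and Gm45713 (59.3%) on their own strand, and neither of these has a row. Counts of these 6 members are uncertain to that extent.

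The comparisons between groups used the ratio of summed CPM, each with 1 CPM added, on a log2 scale, for genes with at least 10 counts over the cells of the 2 groups together and counts in at least 3 of those cells. A gene is called higher or lower where the ratio is at least 2-fold. Members that failed this filter in a comparison were among Rpl3l, Rpl10l, Rpl26 and Rpl39l. Several comparisons share a group, so their values are not independent of each other.

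Cultured astrocytes and cultured cortical neurons held ribosomal protein mRNA at nearly the same overall level. Of the 80 members, all measured, 9 were at least 2-fold higher in astrocytes, where 29.8% of all 17473 genes measured were, and 5 at least 2-fold lower, against 19.9% of all genes. The members' median log2 ratio was 0.04 and that of all genes 0.08, and the members' median turned to -0.10 with TMM factors and to -0.25 with DESeq2 size factors. Rps27l was 687 CPM in astrocytes and 92.5 CPM in cultured cortical neurons, a log2 ratio of 2.88. Rpl22, a large-subunit gene whose loss is known from T-cell leukaemia, was 674 and 141 CPM, a log2 ratio of 2.25. Its lowest, median and highest cells were 1.13, 507 and 3542 CPM in astrocytes and 0, 91.9 and 475 CPM in cultured cortical neurons, so the ranges overlapped while the astrocyte median lay above every neuron.

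Rpl14 was 485 CPM in astrocytes and 195 CPM in cultured cortical neurons, a log2 ratio of 1.31. On the lower side stood Rps15 with 91.3 CPM in astrocytes and 323.9 CPM in cultured cortical neurons (log2 ratio -1.82), Rpsa with 441 and 1282 CPM (-1.54) and Rpl36a with 411 and 1136 CPM (-1.46). The other two called lower, named after their values were seen, were Rpl27a (-1.23) and Rpl8 (-1.13). The cells overlapped for each of these: Rps15 ran from 0.141 to 639 CPM in astrocytes and from 0.477 to 1245 CPM in cultured cortical neurons. With cells of the newer version only, which leaves 7 of the 13 neurons, 23 of 80 members were higher (background 34.6%), 6 were lower (19.9%) and the median log2 ratio was 0.56.

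**Figure D3:**
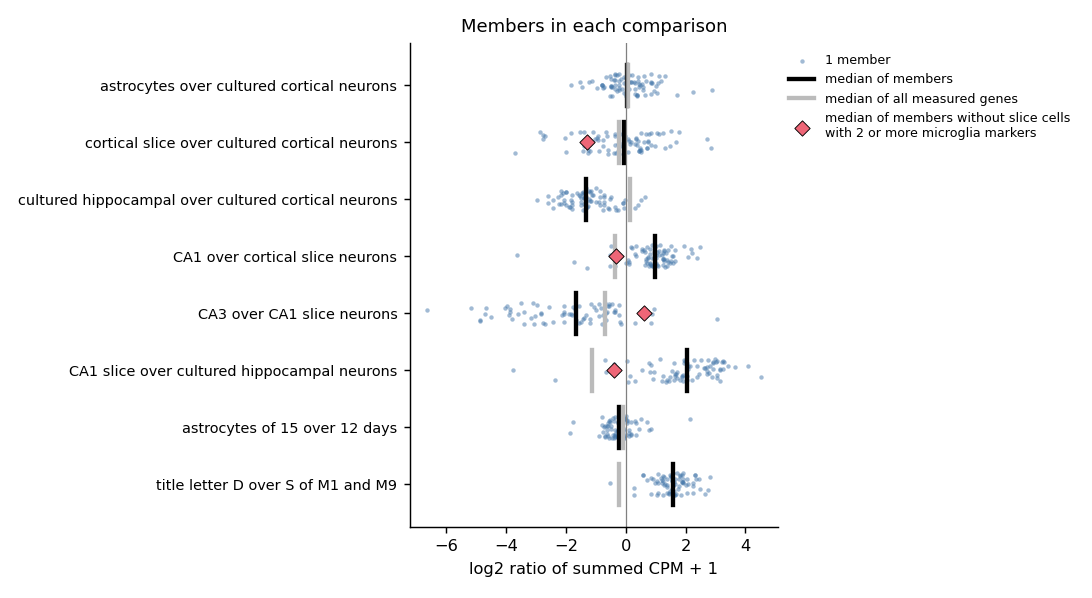
Log2 ratio of summed CPM plus 1 in each comparison for every measured member (points), with bars at the members' median (black) and at the median of all genes measured (grey), and diamonds at the members' median without slice cells with at least 2 microglia markers. Members lie near the all-gene median for astrocytes over cultured cortical neurons and for astrocytes of 15 over 12 days, below it for cultured hippocampal over cultured cortical neurons and for CA3 over CA1, and above it for the comparisons with CA1 first and for D over S.

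With all cells summed, cortical neurons from slices and from culture differed in single members while the family's median was near 0. Of 79 members measured, 10 were at least 2-fold higher in slice neurons (24.7% of 13741 genes) and 17 lower (37% of all genes). The members' median was -0.06 and that of all genes -0.24, and the members' median turned to 0.19 with TMM factors and to 0.24 with DESeq2 size factors. Microglia markers moved with this result: without the 10 slice neurons with at least 2 of them detected, 2 of 77 members were higher (20.6% of all genes) and 44 lower (48.4%), with a median of -1.29 beside an all-gene median of -0.88. Rpl13a, a large-subunit gene whose protein is also known as part of the GAIT translation-control complex, was 2941 CPM in slice neurons and 409 CPM in cultured neurons (log2 ratio 2.84). Rpl22 was 935 CPM in slice neurons and 141 CPM in cultured neurons (2.72), and Rpl12 2252 and 660 CPM (1.77). The slice sum of Rpl22 rested on few cells: its median cell was at 6.89 CPM and its highest at 13071 CPM. Rpl29 was 18.0 CPM in slice neurons and 246.1 CPM in cultured neurons (-3.70), Rps26 43.3 and 321 CPM (-2.86) and Rpl15 46.9 and 327 CPM (-2.78).

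Rpl15, which encodes a protein deep in the large subunit, was detected mostly in cultured cells. It was detected in 84 of 86 astrocytes, 8 of 8 cultured hippocampal neurons and 10 of 13 cultured cortical neurons, and in 0 of 5 CA3, 5 of 14 CA1 and 4 of 22 cortical slice neurons. Its median cell was at 166 CPM in astrocytes, 0 in CA3, 0.305 in CA1, 179 in hippocampal cultures, 0.150 in cortical slices and 61.2 in cortical cultures. The highest CA1 neuron had 55.3 CPM and the highest cortical slice neuron 286.7 CPM. Its annotated transcript has 1922 bases, of which 615 are coding.

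Cultured hippocampal neurons had less ribosomal protein mRNA than cultured cortical neurons across the family. Of 77 members measured, 0 were at least 2-fold higher (30.3% of 13485 genes) and 51 were at least 2-fold lower (25.3% of all genes). The members' median log2 ratio was -1.33 and that of all genes 0.15, and 73 of the 77 were below 0. Rpl36a was 144 CPM in hippocampal and 1136 CPM in cortical neurons (-2.97), Rpl3 227 and 1366 CPM (-2.59) and Rpl7 340 and 2043 CPM (-2.59). The ends of the ranges overlapped even so, since Rpl7 ran from 150 to 713 CPM in hippocampal and from 82.1 to 7527 CPM in cortical neurons. At the other end Rpl37a was 151 and 106 CPM (0.51), Rpl27 304 and 227 CPM (0.42) and Rpl39 412 and 336.05 CPM (0.30). With the newer version only, 0 of 77 were higher (36.7%) and 32 lower (23.2%), with a median of -0.88. The 2 highest hippocampal shares, 3.65% and 4.73%, lay within the cortical range of 2.27% to 11.6%. The hippocampal neurons were all 15 days old, as were 3 of the cortical neurons, with shares of 2.31%, 3.26% and 9.41%. Those 3 were of the older version, and all hippocampal neurons of the newer one. The strain label differed between the hippocampal and the cortical neurons, and this difference cannot be told apart from that of the region.

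CA1 neurons held more ribosomal protein mRNA than cortical slice neurons when all cells were summed. Of 78 members measured, 39 were at least 2-fold higher in CA1 (22.6% of 12666 genes) and 3 lower (39.8% of all genes). The members' median log2 ratio was 0.98, that of all genes -0.37. Without the slice neurons with at least 2 microglia markers detected, the members' median fell below 0 and lay close to that of all genes. There 17 of 74 members were higher in CA1 (27.7% of all genes) and 25 lower (40.7%), with a median of -0.31 beside an all-gene median of -0.33. Rpl28 was 700 CPM in CA1 and 122.8 CPM in cortical slice neurons (2.50), Rpl27a 308.9 and 57.9 CPM (2.39) and Rps26 204 and 43.3 CPM (2.21). Rps27l was 8.72 and 120.6 CPM (-3.64), Rpl15 13.5 and 46.9 CPM (-1.72) and Rps6 90.4 and 225.4 CPM (-1.31). The median cells were 116.9 and 13.6 CPM for Rpl28, with 4 CA1 and 7 cortical slice neurons at 0, so the ranges overlapped fully.

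CA3 neurons were below CA1 neurons when all cells were summed, and the direction turned without CA1 neurons that carried microglia markers. Of 77 members measured, 1 was at least 2-fold higher in CA3 (24.8% of 9378 genes) and 50 were lower (46.2% of all genes), with a members' median of -1.66 and an all-gene median of -0.70. At least 2 microglia markers were detected in 0 of 5 CA3 neurons and 8 of 14 CA1 neurons, and without those cells 30 of 72 members were higher in CA3 (32.2% of all genes) and 15 lower (41.6%), with a median of 0.62 beside -0.44. Rpl5, whose protein carries 5S RNA into the large subunit and binds Mdm2, was 5.68 CPM in CA3 and 673 CPM in CA1 (-6.66). In single CA3 cells it was 0, 0, 0, 7.14 and 17.1 CPM, against a CA1 median of 216 CPM. Rplp0 was 24.7 CPM in CA3 and 930 CPM in CA1 (-5.18). Rpl34 and Rpl15 had no count in any CA3 neuron, against 28.4 and 13.5 CPM in CA1. With 3 counts over the CA3 group as the floor, the summed level of Rpl34 was at least 259.6-fold lower and that of Rpl15 at least 123.8-fold lower in CA3. The median of -1.66 was the same with such members at their bounds. These bounds cover counting error of the sums only and not the spread between cells. For Rpl15 the median CA1 neuron, given above, was itself near 0.

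The members that went the other way in CA3 rested on single cells. Rps27l, the 1 called higher, was 79.9 CPM in CA3 and 8.72 CPM in CA1 (3.06), but 743 CPM in 1 CA3 neuron and 0 in the other 4. Rpl9 was 1770 and 925 CPM (0.94), with CA3 cells at 0, 120, 727, 1491 and 4005 CPM. Rps26 was 379 and 204 CPM (0.89), with CA3 cells at 0, 0, 0.133, 284 and 950 CPM. The number higher ranged from 0 to 4 when each CA3 neuron was left out in turn, and the number lower stayed within 1.5 times of 50. The shares of all genes were not computed for these.

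CA1 neurons from slices stood above cultured hippocampal neurons when all cells were summed. Without CA1 neurons with microglia markers the members' median fell below 0, but it stayed above the all-gene median. Of 78 members measured, 63 were at least 2-fold higher in CA1 (18% of 12806 genes) and 2 lower (51.9% of all genes), with a members' median of 2.04 and an all-gene median of -1.11. With TMM factors the medians were 3.17 and -0.36, and with DESeq2 size factors 3.41 and -0.22. Without the CA1 neurons with at least 2 microglia markers detected, 14 of 77 members were higher (16.5% of all genes) and 30 lower (59.7%), with a median of -0.39 beside an all-gene median of -1.74. Rps23, whose protein lies at the decoding centre, was 4600 CPM in CA1 and 198 CPM in cultured hippocampal neurons (4.53), Rpl13a 5885 and 345 CPM (4.09) and Rpl17 4067 and 322.6 CPM (3.65). Rpl15 was 13.5 and 198 CPM (-3.78), Rps27l 8.72 and 48.7 CPM (-2.35) and Rpl29 53.996 and 85.9 CPM (-0.66). The strain label also differed between these groups, and this cannot be told apart from slice against culture.

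These slice results moved with RNA of microglia. Over CA1 neurons, Spearman's correlation between a cell's share of counts on the 80 genes and its summed CPM on the 10 microglia markers was 0.82 (15 cells). It was 0.80 in CA3 (5 cells) and 0.71 in cortical slice neurons (22 cells), against 0.02 in astrocytes (86 cells), -0.48 in cultured hippocampal (8 cells) and -0.26 in cultured cortical neurons (13 cells). The 2 quantities share each cell's total as their denominator. The CA3 value ranks levels near the floor: the median CA3 neuron had 2.03 CPM on the markers and none had 2 of them detected. In the highest CA3 cell, C1qb held 310.5 of the 311 CPM. Over the whole list, the lowest, median and highest summed levels were 0, 19.7 and 13926 CPM in astrocytes, 0.610, 2.03 and 311 CPM in CA3, 0.253, 482 and 19200 CPM in CA1, 0, 8.68 and 36.2 CPM in hippocampal cultures, 0.115, 539 and 16510 CPM in cortical slices and 0, 0.270 and 1865 CPM in cortical cultures. C1qa was at 0 in CA3, Tmem119 at 0 in astrocytes, and C1qc, P2ry12, Tmem119 and Aif1 at 0 in cultured hippocampal neurons.

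In CA1 the cells with the highest shares were those with the most RNA of microglia markers, and in cortical slices this held less well. The 3 CA1 neurons with the highest shares, 21.4%, 20.4% and 11.3%, had 11459, 13488 and 19200 CPM on microglia markers, with 6, 10 and 10 of the 10 detected. The first of them had 24.6 CPM on the 10 neuron markers. The CA1 neuron with the lowest share, 0.632%, had 0.253 CPM on the microglia markers. Among cortical slice neurons, the cell with 20.1% had 11560 CPM on microglia markers, 7.40 CPM on neuron markers and 12752 CPM on the 6 oligodendrocyte markers. The cell with 18.8% had 964 CPM on microglia markers with 2 detected, 11627 CPM on astrocyte markers with 9 of 10 detected, 4760 CPM on oligodendrocyte markers with 4 of 6 detected and 3501 CPM on neuron markers. Both of these are the slice neurons counted above as having more astrocyte than neuron markers. The cortical slice neurons with the highest sums on microglia markers, 16510 and 15560 CPM, had shares of 8.13% and 6.13%.

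**Figure D4:**
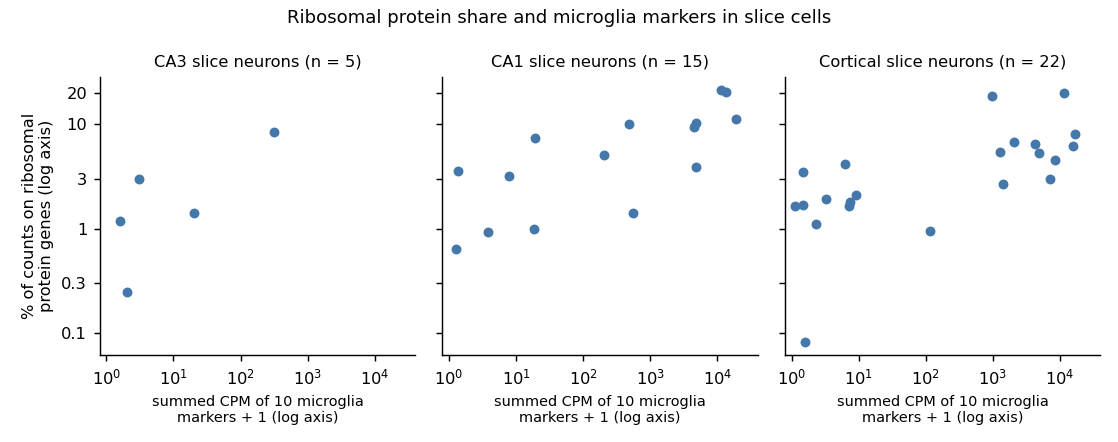
Share of each slice neuron's counts on the 80 ribosomal protein genes (vertical axis, percent, log scale) against its summed CPM plus 1 on the 10 microglia markers (horizontal axis, log scale), by group. Cells with high shares lie to the right, and the lowest shares, 0.0813% in cortical slices and 0.632% in CA1, lie at under 1 CPM of microglia markers.

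Without the slice neurons with at least 2 microglia markers detected, 7 CA1, 12 cortical slice and all 5 CA3 neurons were left. The median share became 1.40% in CA1 and 1.86% in cortical slice neurons. As given with each comparison, the members' median then changed sign for CA1 over cortical slice neurons, for CA3 over CA1 and for CA1 over cultured hippocampal neurons, and moved further below 0 for slice over cultured cortical neurons. Beyond this subset, the part of microglial RNA in the slice results was not tested.

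Further subsets left out other cells. Without the 3 cultured and 2 slice neurons that had more astrocyte than neuron markers, 13 of 80 members were higher (34.8% of all genes) and 6 lower (19.1%) in astrocytes over cultured cortical neurons, with a median of 0.14. For slice over cultured cortical neurons 8 of 78 were higher (30.2%) and 28 lower (33.2%), with a median of -0.61. For cultured hippocampal over cultured cortical neurons 0 of 77 were higher (37.6%) and 47 lower (21.9%), with a median of -1.25, and for CA1 over cortical slice neurons 56 of 78 were higher (23.2%) and 2 lower (40.1%), with a median of 1.51. With cells of the newer version only, slice over cultured cortical neurons had 27 of 78 higher (26.3%) and 15 lower (42.5%), with a median of 0.41, and CA1 over cortical slice neurons 22 of 78 higher (27.6%) and 6 lower (37.7%), with a median of 0.47. In the same cells CA3 over CA1 had 4 of 77 higher (24.3%) and 41 lower (49.9%), with a median of -1.15, and CA1 over cultured hippocampal neurons 52 of 77 higher (17.7%) and 3 lower (54.7%), with a median of 1.89.

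The 8 hippocampal libraries carry a title that ends in S or D, letters whose meaning the labels do not give, and 2 title numbers, M1 and M9, occur with each letter. The comparison of D with S was chosen after the data were seen. The ribosomal protein share was 3.65% in M1 D and 4.73% in M9 D, against 1.26% in M1 S and 1.36% in M9 S. All 6 S libraries lay between 1.26% and 1.63%, so the D libraries did not overlap them. With D and S of M1 and M9 summed, 66 of 76 members were at least 2-fold higher in D (19.9% of 7642 genes) and 0 were lower (32.3% of all genes), with a members' median of 1.58 and an all-gene median of -0.23. In M1 alone the members' median was 1.43 beside an all-gene median of -1.20, with 73 of 76 above 0. There 58 were at least 2-fold higher, against 20.7% of all genes. In M9 alone the members' median was 1.76 beside -0.87 for all genes, with 74 above 0. There 65 were at least 2-fold higher, against 26.4% of all genes. Of 74 members measured in each pair, 71 were higher in D in both and 50 were at least 2-fold higher in both. The share of all genes higher in both pairs was not computed. Both D libraries were above all 6 S libraries for 61 of the 76 members, against 4.74% of 11064 genes.

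Single members show the size of it. Rpl38, whose protein is known in mice for a part in translating Hox mRNAs, had 787 and 1041 CPM in M1 D and M9 D, against 123.8 and 131 CPM in M1 S and M9 S (log2 ratio 2.82). Rpl41, which encodes the smallest ribosomal protein, had 845 and 1511 CPM in D against 120 and 255.6 CPM in S (2.75). Rpl12, next to the stalk, had 1074 and 701 CPM in D against 172 and 91.5 CPM in S (2.66). For these 3 genes the D libraries lay above all 6 S libraries. At the other end stood Rpl11 with 687 and 557 CPM in D against 321.8 and 606 CPM in S (0.58), Rps6 with 82.3 and 87.0 CPM in D against 72.5 and 61.8 CPM in S (0.29) and Rpl5 with 234.1 and 258 CPM in D against 226 and 161 CPM in S (0.26). Rpl5 and Rpl11 encode the proteins that bind 5S RNA together.

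**Figure D5:**
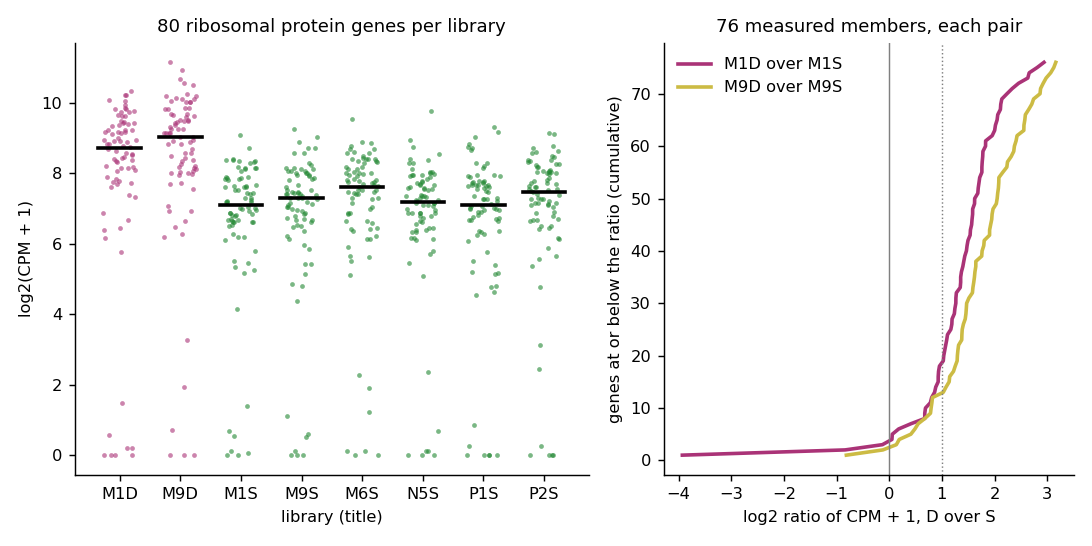
Left, level of each of the 80 members (points, log2 of CPM plus 1) in each of the 8 hippocampal libraries, the D libraries left of the S libraries, with bars at the medians. Right, number of measured members at or below each log2 ratio of D over S, in the M1 and the M9 pair, with lines at 0 and at 2-fold; most members lie right of 0 in each pair.

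The D libraries also differed in depth and breadth. They had 6211132 (M1) and 4654244 (M9) counts, against 21214980 and 11332202 in S, and 5279 and 5590 genes detected at the common depth, against 8495 and 7612. Correlations over genes were 0.719 between M1 D and M1 S and 0.706 between M9 D and M9 S, within the range of 0.626 to 0.9001 among all pairs of the 8 libraries. The part of depth and breadth in the difference was not tested. Related genes are read against the same shares of all genes, 19.9% higher and 32.3% lower in D. Of 7 ribosomal protein genes whose names fall outside the rule, 5 were at least 2-fold higher in D, including Fau, which encodes a small-subunit protein fused to a ubiquitin-like one (log2 ratio 1.85). Of 74 mitochondrial ribosomal protein genes, 10 were higher and 19 lower, with a median of -0.08, and of 18 ribosome biogenesis genes 2 were higher and 2 lower (median -0.02), beside an all-gene median of -0.23.

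Other genes of translation were given by lists. The shares of all genes higher and lower were 19.9% and 32.3% in D over S, 30.3% and 25.3% in cultured hippocampal over cultured cortical neurons, 18% and 51.9% in CA1 over cultured hippocampal neurons, and 29.8% and 19.9% in astrocytes over cultured cortical neurons. Of 15 further mRNAs known to begin with an oligopyrimidine tract, 7 were at least 2-fold higher in D than in S and 1 lower (median 0.92), among them Tpt1, which encodes a growth-related calcium-binding protein (1.41), and the elongation factor genes Eef2 (1.45) and Eef1a1 (1.14). In cultured hippocampal over cultured cortical neurons 1 of 15 was higher and 6 lower, with a median of -0.80 beside -1.33 for the members and 0.15 for all genes. In CA1 over cultured hippocampal neurons 4 of 15 were higher and 5 lower, with a median of 0.13 beside 2.04 for the members and -1.11 for all genes. Of 9 elongation factor genes, 0 were higher and 3 lower in astrocytes over cultured cortical neurons, among them Eef1a2, the neuron and muscle isoform of Eef1a1, at 0.876 CPM in astrocytes against 61.7 CPM in the neurons.

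Initiation factors and ribosome assembly genes are given against the same shares of all genes. Of 27 initiation factor genes, 3 were higher and 13 lower in CA1 over cultured hippocampal neurons (median -0.67), and 6 were higher and 5 lower in cultured hippocampal over cultured cortical neurons (median -0.59). Of 28 biogenesis genes, 5 were higher and 12 lower in CA1 over cultured hippocampal neurons (median -0.77), and 8 higher and 4 lower in cultured hippocampal over cultured cortical neurons (median 0.30). Of 17 genes that control ribosomal protein synthesis, such as those of the mTOR pathway, 2 were higher and 9 lower in CA1 over cultured hippocampal neurons (median -1.15). The lists were chosen by textbook function, and no difference between a list and the members was tested.

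Astrocytes of 15 days were close to those of 12 days. Of 80 members, 1 was at least 2-fold higher (12.6% of 16569 genes) and 2 lower (19.5% of all genes), with a median of -0.22 beside -0.08 for all genes. The 3 called, named after their values were seen, were all weak: Rpl26 had 4.57 CPM at 15 days and 0.245 CPM at 12 days, Rpl30 0.770 and 5.45 CPM, and Rpl3l 0.0200 and 2.48 CPM. Among members with at least 10 CPM in 1 of the ages large ratios were those of Rps2 (0.78) and Rps15 (0.72), and the smallest were those of Rps7 (-0.88), Rpl13a (-0.80) and Rpl27a (-0.80), none of which reaches 2-fold.

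Within astrocytes the members went up and down together. Over the 86 astrocytes, each of the 73 members detected in most cells was correlated with the summed CPM of the other members, and all 73 Spearman correlations were positive, up to 0.81 for Rplp1, with a median of 0.58. The median was 0.69 in CA1 (15 cells), 0.67 in cultured hippocampal neurons (8 cells) and 0.48 in cortical slice neurons (22 cells), and there too the correlation of each member so examined was positive. In CA3 (5 cells) the median was 0.56, with 40 of 53 positive and the lowest at -0.60 for Rpl14. In cultured cortical neurons (13 cells) the median was 0.32, with 58 of 72 positive. Members share the library and the depth of their cell, and CPM ties all genes of a cell to one total. How many of all genes had a positive correlation was not counted in any group. Over astrocytes, 4645 genes outside the family had a median correlation of -0.06 with the members' summed CPM. In CA1 and cortical slice neurons the members' sum also moved with microglia markers, as given above.

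Among the genes outside the family whose level followed it most closely over the 86 astrocytes were, by Spearman's correlation with the members' summed CPM among 4645 candidates (median -0.06), Tpt1 (0.73), Gm13826 (0.73), Mir682 (0.60), Eef1b2 (0.58), Tmsb4x (0.57), Psmb1 (0.57), Atp5f1 (0.55), Dynll1 (0.54) and Fth1 (0.53). Tpt1 and Eef1b2 also stand on the lists above, Tpt1 as an mRNA with an oligopyrimidine tract and Eef1b2 as an elongation factor gene. Fth1 encodes the ferritin heavy chain, Tmsb4x an actin-binding peptide, Psmb1 a proteasome subunit and Dynll1 a dynein light chain. In astrocytes Tpt1 had 1271 CPM and Eef1b2 2151 CPM.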

How the data were processed

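The values are counts of reads per gene that the authors deposited as 1 table. Per the submitters' processing notes, reads were made with bcl2fastq 1.8.4 or bcl2fastq2 2.17, aligned with STAR to mm10 (GRCm38) and counted with HTSeq. Per the labels' protocols, libraries were TruSeq Stranded. The notes give neither the annotation nor the settings for strand and for reads with several matches.

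The 2 libraries of a cell were summed, and counts were scaled to CPM (counts per 1000000 counts) of a cell or group. Log2 ratios used summed CPM with a pseudocount of 1 CPM, for genes with at least 10 counts over the cells of the 2 groups together and counts in at least 3 of those cells, and 2-fold was the threshold. Detection was at least 5 counts after thinning to 1000000 counts (seed 7). Each group was 1 sample, so no test was run. Spread is given over cells. Exact Poisson 95% intervals and floors (3 counts) cover counting error only, and exact binomial 95% intervals on detection treat cells as independent. Cells had 535369 to 38680739 counts.

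Named genes were the 3 highest and 3 lowest members per kilobase, the 3 largest and 3 smallest ratios of each comparison (at least 10 CPM in a group and the same sign in the mean of cells), paralogs, the stalk genes, Rpsa, Rps6 and Rps27a, the 3 least and most often detected, and the 10 genes most like the members over astrocytes. Further members are named for what the text says of them. Of the genes these rules named, 2 are not reported here. The members and lists were chosen with earlier results of these data known. Alternatives covered scaling (TMM factors of edgeR 4.0.16, DESeq2 1.42.0 size factors, both in R 4.3.3), pseudocount, filter, cell weight, thinning, version, age, and cells or libraries left out. The code ran in Python 3.11.15 with numpy 2.4.6, pandas 2.3.3, scipy 1.17.1 and matplotlib 3.10.9, and was tested on simulated data. Promoters came from RefSeq (GRCm38.p6) and transcripts from GENCODE vM21.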

Additional observations from a re-analysis of the deposited data

Results flagged for a closer look

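In groups or culture ages of 4 to 10 cells, 50 sets of values were searched for a cell whose gap to the nearest other was large against the whole range. The rule marks about 1 in 20 sets of independent, normally distributed values. Here 14 were marked. The sets share cells and hold CPM values and numbers of genes, so the 14 cannot be set against that rate.

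In CA3, 1 neuron had 28 members detected where the next had 46. Single CA3 neurons stood far above the other 4 for Rplp0 with 227.7 CPM, Rplp1 with 9196 CPM, Rps27a with 292.4 CPM, Rps6 with 171 CPM and Rpsa with 224 CPM. Rplp1, Rps6 and Rpsa were highest in the same cell, and Rplp0 and Rps27a were highest in another.

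Among cultured hippocampal neurons, library M9 D stood far above the other 7 for Rplp0 with 1956 CPM, Rplp1 with 2260 CPM, Rps27a with 1154 CPM and Rpsa with 1158 CPM. Among astrocytes of 14 days, 1 cell was far below the others for Rplp0 with 162 CPM and another far above for Rps6 with 1033 CPM. Among cultured cortical neurons of 13 days, 1 cell had 72 members detected where the others had 73, and 1 was far above for Rplp2 with 959 CPM.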

How the results depend on the processing

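Under the alternatives run, all 64 values of the share of counts moved by less than the spread between cells (1 SD). That limit was wide. The SD exceeded the median share in CA1 (6.63% against 5.08%), cortical slices (5.19% against 3.22%) and CA3 (3.25% against 1.41%), so no fall could count as a move there. The CA1 median fell to 1.40% without the cells with at least 2 microglia markers, and this counted as unmoved. Against a spread between cells of the same kind, 110 median log2 ratios also moved by less, whichever side of 2-fold they ended on. Some of these crossed 2-fold. With the newer version only, -1.33 became -0.88 for cultured hippocampal over cultured cortical neurons. Without the slice neurons with at least 2 microglia markers detected, -0.06 became -1.29 for slice over cultured cortical neurons. Of medians past 2-fold, 2 turned round, both without the slice neurons with at least 2 microglia markers detected: -0.39 for CA1 over cultured hippocampal neurons and 0.62 for CA3 over CA1. Medians under 2-fold changed sign in 3 comparisons: to -0.31 in the same subset for CA1 over cortical slice neurons, to between -0.25 and -0.04 for astrocytes over cultured cortical neurons (TMM, DESeq2 and a minimum of 10 CPM), and to between 0.10 and 0.41 for slice over cultured cortical neurons (TMM, DESeq2, second library left out, title letter P only, newer version only). Of 224 counts of members past 2-fold, 179 stayed within 1.5 times of the main count. Of 735 ratios of named genes, 718 moved by less than the spread between cells and 0 turned round, and 17 moved by more.

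Without those slice neurons, the numbers higher and lower were 17 and 25 for CA1 over cortical slice neurons, 14 and 30 for CA1 over cultured hippocampal neurons, 30 and 15 for CA3 over CA1, and 2 and 44 for slice over cultured cortical neurons, and the median member was detected in 50% of CA1 neurons. With DESeq2 size factors, the number higher was 62 for CA1 over cortical slice neurons, 4 for CA3 over CA1, 4 for astrocytes over cultured cortical neurons (11 lower) and 18 for slice over cultured cortical neurons. With TMM factors it was 60, 3, 5 and 16 in the same order. With cells of the newer bcl2fastq version only, it was 22 (6 lower), 4, 23 and 27 in that order, and 32 were lower for cultured hippocampal over cultured cortical neurons. With the mean of cells' CPM, 22 were higher for CA1 over cortical slice neurons, 4 lower for CA1 over cultured hippocampal neurons, 2 higher for astrocytes of 15 over 12 days, 8 lower for astrocytes over cultured cortical neurons and 1 higher for cultured hippocampal over cultured cortical neurons. With cells of 15 days only, 12 were lower for astrocytes over cultured cortical neurons and 2 higher for cultured hippocampal over cultured cortical neurons. Leaving out each CA3 neuron gave 0 to 4 higher for CA3 over CA1. With title letter P only, 16 were higher for slice over cultured cortical neurons, and 28 were lower without neurons with more astrocyte than neuron markers. For astrocytes of 15 over 12 days, a minimum of 10 CPM or a pseudocount of 5 CPM gave 0 higher and 0 lower. For cultured hippocampal over cultured cortical neurons, no filter or a pseudocount of 0.1 CPM gave 1 higher. For D over S, 1 was lower in the M1 pair, against all 6 S libraries, and with a pseudocount of 0.1 CPM. The share of all genes past 2-fold was computed only for the subsets on microglia markers, newer version and astrocyte markers, and is given above. For every other alternative it was not computed. Those counts show how the number of members moved and cannot be read against all genes. The causes of these moves were not tested, beyond what each alternative leaves out.

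TMM and DESeq2 scaling moved the all-gene median by more than 0.1 (log2) in the comparisons of slice cells, of cultured hippocampal over cultured cortical neurons and of D over S, most in CA1 over cultured hippocampal neurons, where -1.11 became -0.36 and -0.22. The D and S comparison, leaving out the cell with most member counts or, for the ratio of highest to lowest share, with the lowest share, and the scale per coding length were chosen after the data were seen. A denominator without the mitochondrial genome was not run, because the table has no such rows. No paired analysis was possible because no test was run and the labels pair no cells across groups. Slice neurons had the fewest counts and genes, so members at 0 there are not shown to be absent.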
